A study of Macaca mulatta with 16 samples.

Results

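Regions of open chromatin that set naive CD8+ T cells apart from 3 other T cell populations of rhesus macaque blood were of 2 kinds. The first kind comprised 212 regions open in all 4 naive CD8+ libraries and in none of the other 12. The second comprised 141 regions open in none of the naive CD8+ libraries and in all other 12. Both were taken from 55449 regions, formed by merging the peaks of all 16 libraries that shared at least 1 bp. A peak anywhere in a region made it open in that library. The 212 were 0.382% and the 141 were 0.254% of all regions. Both kinds were chosen by the presence and absence of peaks in these same 16 lists, so that contrast is described here and not tested.

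The libraries were made by ATAC-seq, in which a transposase cuts accessible DNA, from 10000 sorted cells each. Cells came from 2 healthy animals, sampled before treatment (labelled as treatment none) and after subcutaneous 2-hydroxypropyl-beta-cyclodextrin (Kleptose HBP), a cholesterol-binding sugar ring. The protocol gives a 15% (w/w) solution at 1 ml/kg each day for up to 120 days. Naive CD4+, memory CD4+, naive CD8+ and memory CD8+ T cells were sorted at both times, which gave 8 groups of 2 libraries, 1 per animal. No untreated animal was analysed here, so time and treatment cannot be told apart. The labels give neither the age of the animals nor the surface markers of the sort, and the sorted identity was not checked against marker genes, because no annotation of the build of the files, rheMac10, was used. For the same reason no gene and no sequence is given at the regions.

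Naive CD8+ T cells circulate through blood and lymph nodes until they meet a peptide on MHC class I. They then divide into cytotoxic effectors, some of whose descendants persist as memory cells. Naive CD4+ cells share this resting state but recognise peptides on MHC class II and become helper cells. Accessible stretches mark promoters, enhancers and other sites where proteins displace nucleosomes, and those away from promoters tend to differ most between cell types.

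Lists held 36307 to 42034 peaks (median 40452) and covered 51.4 to 66.3 Mb. Read depth was unknown, so where a list lacks a peak the chromatin may still have been accessible below its threshold. The 2 naive CD8+ lists of animal 1 were the shortest, with 36307 peaks before and 37966 after treatment, while those of animal 2 held 41396 and 41150. Of all regions, 24333 (43.9%) were open in every library. Without the naive CD8+ library of animal 1 taken before treatment, the first kind numbered 351. Without both naive CD8+ libraries of animal 1 it numbered 782 and the second kind 223. Counts of this sort fall by construction as more libraries must hold a peak.

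Among the 4 populations, naive CD8+ cells lay between memory CD8+ cells and the CD4+ populations. Memory CD8+ cells had 944 regions open in their 4 libraries alone (1.7% of all regions) and 461 missing from theirs alone (0.831%). Memory CD4+ cells had 168 (0.303%) and 32 (0.0577%), and the naive CD4+ shares were 0.218% and 0.224%. No test was made of these counts.

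Regions open in naive CD8+ cells alone were mostly weak peaks, as were those of the other populations. Each list gives the area score of the authors' caller, which was ranked within its own list. The mean percentile of a region over its 4 libraries had a median of 24.3, with quartiles of 16.9 and 32.8, against a median of 59.4 over the 29895 regions open in all 4 naive CD8+ libraries. For regions open in 1 other population alone the median was 28.6 in memory CD8+, 18.3 in naive CD4+ and 18.2 in memory CD4+ cells. Member peaks ranked at a median percentile of 17.1 before and 21.1 after treatment in animal 1, and of 29.8 and 29.4 in animal 2. The 2 lists of animal 1 thus held these regions nearer to the lower limit of detection. Regions were also narrow, with a median width of 903 bp against 2002 bp for the larger set and 873 to 1069 bp for regions of the other populations alone. The range of the summits over the 4 libraries had a median of 55.5 bp, against 31 bp in the larger set. In 79.7% of the 212 regions all 4 summits fell within 200 bp. The same share over the larger set was 79.1%.

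**Figure D1:**
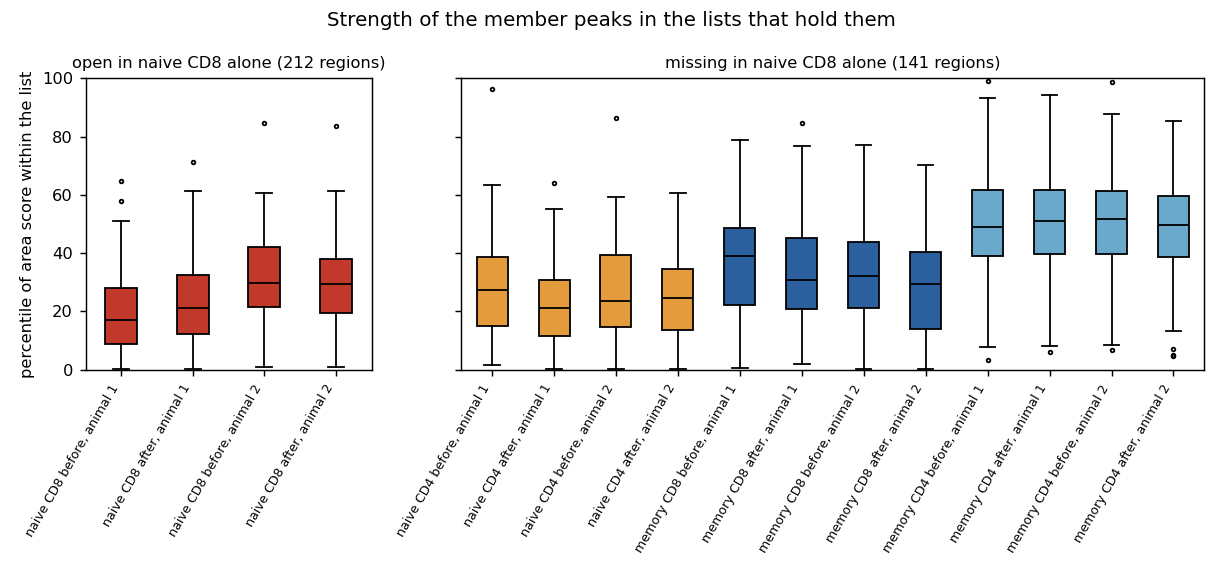
Percentile of the peak's area score within its own list (vertical axis) for each library that holds the regions, with boxes from the lower to the upper quartile, the median as a line, whiskers to the farthest value within 1.5 box lengths and circles beyond. The 212 regions open in naive CD8+ cells alone had medians from 17.1 to 29.8, and the 141 regions missing there had medians from 49.0 to 51.6 in memory CD4+ lists, 29.3 to 38.96 in memory CD8+ lists and 21.0 to 27.4 in naive CD4+ lists.

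The strongest of the 212 stood well apart from the next. It lay on chromosome 11 at 91748075 to 91750778, 2704 bp wide, and ranked at percentile 64.7 before and 71.4 after treatment in animal 1, and at 84.6 and 83.6 in animal 2. Its 4 summits lay within 1 bp of each other, with −log10 p from 4.92 to 6.46. In all 4 lists it was above the middle of the list, and higher in animal 2 than in animal 1. The nearest region open in all 16 libraries was 71.7 kb away.

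The region ranked next, also on chromosome 11 at 17400700 to 17401926, had percentiles of 50.9 and 54.6 in animal 1 and 56.4 and 55.1 in animal 2. On chromosome 5, the region at 88003379 to 88004307 had percentiles of 46.8 and 52.0 in animal 1 and 56.4 and 55.7 in animal 2, with summits within 10 bp. A region on chromosome 12 at 4162096 to 4163604 was the most even of the 10, with a mean percentile of 51.5 ± 1.22 (SD, n = 4) and a highest value of 52.6. These 3 sat near the middle of every naive CD8+ list, and each was over 60 kb from the nearest region open in all libraries, at 64.3, 197.1 and 97.8 kb.

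Other strong regions differed more between the animals. The region on chromosome 13 at 19050011 to 19051645 ranked at 39.1 and 49.3 in animal 1 and at 60.5 and 59.4 in animal 2. A region on chromosome 9 at 124395815 to 124396975 went the other way, at 58.0 and 61.2 in animal 1 and 36.8 and 37.3 in animal 2. On chromosome 19, the region at 15708545 to 15709877 had 39.5 and 38.1 in animal 1 and 53.5 and 54.1 in animal 2, with summits within 1 bp. For each of these 3 the values before and after treatment lay on one side of both values of the other animal. On chromosome 10 the region at 34012150 to 34013905 did not separate the animals, with 45.6 before and 58.4 after in animal 1 and 43.1 and 51.7 in animal 2. The 10 strongest were completed by a pair on chromosome 3, at 86468044 to 86469018 (mean percentile 46.0 ± 6.34, SD, n = 4) and at 86513916 to 86515051 (45.6 ± 10.6, SD, n = 4).

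At the other end stood regions that a small change of threshold would remove. The weakest was on chromosome 1 at 80570723 to 80571262, with percentiles of 4.78 and 0.764 in animal 1 and 6.37 and 1.71 in animal 2. Next came 29220543 to 29221020 on chromosome 8, 211156868 to 211157467 on chromosome 1, 83716971 to 83717745 on chromosome 13 and 95243873 to 95244296 on chromosome 15, with mean percentiles from 5.59 to 7.20. Under lists of equal length 161 of the 212 remained, with a stricter threshold (a summit −log10 p of at least 3.42) 50, with coverage of at least 50% of the region 185 and with 500 bp windows around summits 210. Under all 4 settings 43 remained. Of the 10 strongest, 9 kept their pattern under all 4, and the region on chromosome 13 kept it under 3. Leaving out libraries cannot remove a member and is not counted here.

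Regions 1 library away from this pattern were shared most often with naive CD4+ cells. There were 103 regions open in all 4 naive CD8+ libraries and in 1 other. That other library was naive CD4+ for 76, memory CD8+ for 26 and memory CD4+ for 1. The lead of naive CD4+ cells was larger in animal 1, with 26 regions before and 26 after treatment against 3 and 8 for memory CD8+ cells. In animal 2 the counts were 10 and 14 against 11 and 4. The peak of the other library was weak, with a median percentile of 8.13, while the naive CD8+ peaks of the same regions had a median of 22.3. A further 189 regions were open in 3 of the 4 naive CD8+ libraries and no other. Their naive CD8+ peaks were weaker than those of members, with a median mean percentile of 13.6. The library without them was that of animal 1 before treatment for 139, that of animal 1 after treatment for 27, and those of animal 2 for 12 and 11.

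**Figure D2:**
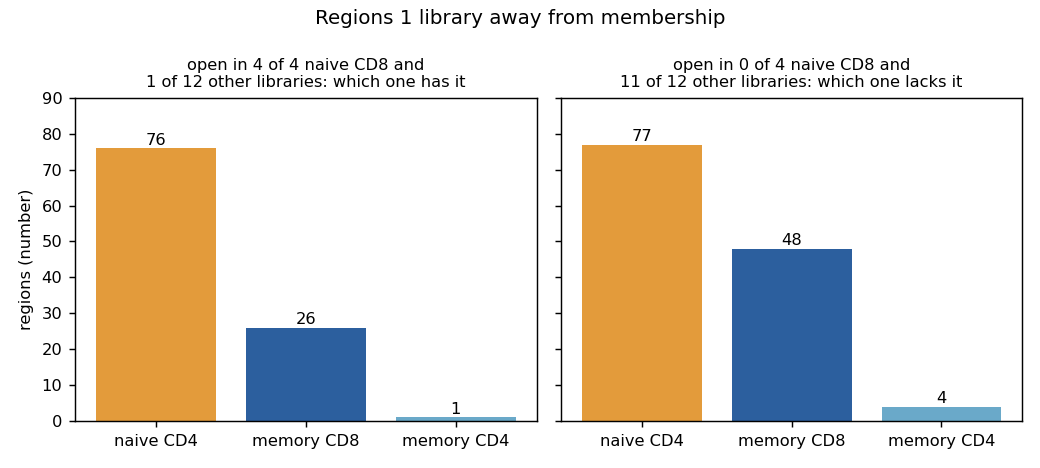
Number of regions (vertical axis) that differ from membership in 1 of the 12 libraries of the other populations, by the population of that library. Naive CD4+ libraries account for 76 of 103 regions on the left and 77 of 129 on the right, and memory CD4+ libraries for 1 and 4.

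To read the pattern in libraries that had not chosen it, the choice was repeated within each animal and its result read in the opposite one. Animal 1 gave 406 regions (0.732%) open in both naive CD8+ libraries and none of the other 6. Animal 2 gave 1080 (1.95%). Regions chosen in animal 1 were open in 80.5% and 80.0% of cases in the naive CD8+ libraries of animal 2 before and after treatment. Those chosen in animal 2 were open in 39.9% before and 53.2% after in animal 1. All 4 values exceeded those of the other 12 libraries, of which the highest was 18.3%.

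The mean was 63.4% ± 20.2 (SD, n = 4) in naive CD8+ libraries and 8.73% ± 5.93 (SD, n = 12) in the others. The difference of 54.7 percentage points passed the exact permutation test over 1820 label assignments (two-sided p = 0.00110, the smallest possible, Benjamini-Hochberg adjusted p = 0.00220 over 12 tests). The permutation treated the 16 libraries as separate units, although they came from 2 animals. Such p-values therefore do not measure the spread between animals. The 212 members are in both chosen sets, and by the rule they are open in every naive CD8+ library and no other. The outcome was thus partly fixed in advance, and this p-value is no independent support for the members. Within animal 1 the means were 46.6% against 8.89%, and within animal 2 they were 80.3% against 8.58%. With lists of equal length the 2 naive CD8+ libraries of animal 1 gave 58.1% and 65.3% and those of animal 2 gave 69.5% and 70.4%.

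Read in this way, the other populations differed among themselves. Regions chosen as open in naive CD8+ cells alone were open in 15.2% ± 3.24 of cases in naive CD4+ libraries, 8.10% ± 3.87 in memory CD8+ libraries and 2.91% ± 1.29 in memory CD4+ libraries (SD, n = 4 each). Naive CD4+ exceeded memory CD4+ libraries by 12.3 points (exact permutation test, two-sided p = 0.0286, the smallest that 4 against 4 allows, adjusted p = 0.0381). Memory CD8+ exceeded memory CD4+ libraries by 5.19 points (exact permutation p = 0.0286, adjusted p = 0.0381). Most of this difference came from animal 2, with 12.6% and 10.1% in memory CD8+ against 2.46% and 1.48% in memory CD4+ libraries. In animal 1 the values were 4.72% and 5% against 3.15% and 4.54%. This second call was lost in 12 of the 16 fits that left out 1 library (3.85 to 9.34 points, adjusted p up to 0.171), among them every library of animal 2. Where a memory CD8+ or memory CD4+ library was left out, that loss was certain, as 3 against 4 cannot go below an exact p of 0.0571. The first call was lost only when a naive or memory CD4+ library was left out (11.0 to 17.0 points), where the same limit holds. The difference of 7.11 points between naive CD4+ and memory CD8+ libraries did not pass (exact permutation p = 0.0571, adjusted p = 0.0623). Their ranges overlapped by 1 value on each side, at 11.8% in naive CD4+ cells and 12.6% in memory CD8+ cells of animal 2. This difference came mostly from animal 1, with 17.6% and 18.3% in naive CD4+ against 4.72% and 5% in memory CD8+ libraries. In animal 2 the values were 11.8% and 13.05% against 12.6% and 10.1%. With labels permuted within each animal, where 4 against 4 cannot go below an exact p of 0.0556, none of the 3 passed.

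**Figure D3:**
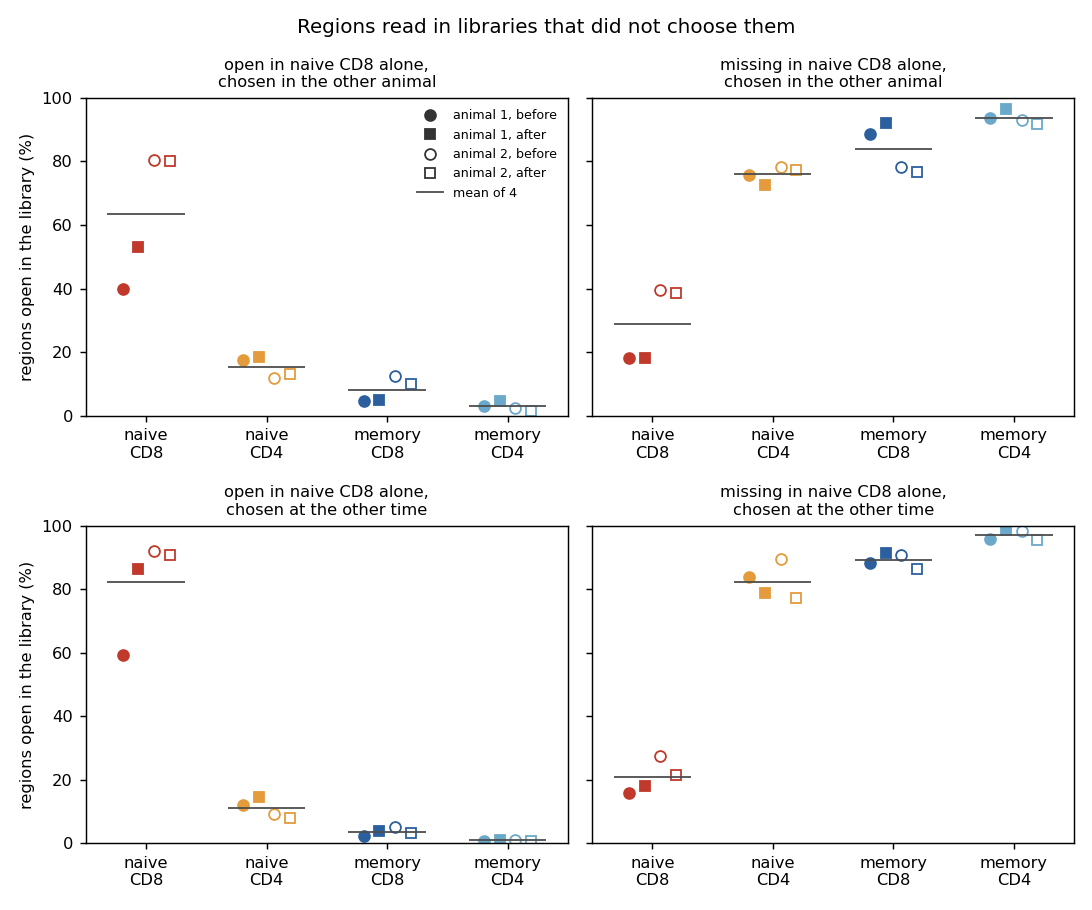
Percent of regions open (vertical axis) in each of the 16 libraries, read only on regions chosen in the other animal (top) or at the other time (bottom), with filled symbols for animal 1, open symbols for animal 2, circles before and squares after treatment, and a line at the mean of the 4 libraries. Naive CD8+ libraries lay between 39.9% and 92.2% on regions chosen as open there alone, above every other library, and at 39.7% or less on regions chosen as missing there, below every other library.

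Regions chosen before treatment were seen again after it. Before treatment 346 regions (0.624%) were open in both naive CD8+ libraries and none of the other 6. After treatment 86.4% of them were open in the naive CD8+ library of animal 1 and 90.8% in that of animal 2. After treatment 498 (0.898%) had this pattern, and before treatment 59.2% of them were open in animal 1 and 92.2% in animal 2. The low value was that of the shortest list, and with lists of equal length it was 68.5%, still the lowest. The other naive CD8+ values were then 83.7% in animal 2 before treatment, and 85.1% and 85.5% in animals 1 and 2 after it. Whether list length accounts for the gap was not tested. Over both directions of time the mean was 82.1% ± 15.5 (SD, n = 4) in naive CD8+ and 5.23% ± 4.74 (SD, n = 12) in other libraries (exact permutation test, two-sided p = 0.00110, adjusted p = 0.00220). The same animals stood on both sides, so this reading repeats the animals and not the choice of animals. Its p-value is no evidence about other animals. By definition the 212 members belong to both chosen sets, here and in the choice within each animal. The outcome here was therefore also partly fixed by the rule.

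The same reading was made for the other populations, without a test of the differences. Regions chosen in the other animal as open in 1 population alone were open in 75.4% ± 4.66 of cases for memory CD8+, 67.8% ± 6.10 for memory CD4+ and 59.2% ± 5.21 for naive CD4+ cells in their own libraries (SD, n = 4 each). The 63.4% of naive CD8+ cells lay within that span, and its SD of 20.2 was the largest of the 4.

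Regions missing from naive CD8+ cells alone ranked higher and were wider than those open there alone, and so were the corresponding regions of the other populations. Their median mean percentiles, missing against open alone, were 38.2 against 28.6 for memory CD8+, 38.7 against 18.3 for naive CD4+ and 30.9 against 18.2 for memory CD4+ cells. A missing region must hold a peak in 12 lists and is merged from them, which favours strong and wide regions by construction. Over the 12 lists that held them, their mean percentile had a median of 35.8, with quartiles of 29.4 and 41.8. The median over the 25411 regions open in all these 12 lists was 66.1. Width had a median of 1475 bp against 2183 bp in the larger set, and 4 members were wider than 5 kb. All 12 summits fell within 200 bp in 53.9% of the 141 regions and in 61.2% of the larger set.

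Strength in the 3 other populations was uneven, and memory CD4+ lists ranked these regions highest. The median percentile of the 141 was 49.0 to 51.6 in the 4 memory CD4+ lists, 29.3 to 38.96 in memory CD8+ lists and 21.0 to 27.4 in naive CD4+ lists. Of the 141, 125 had their highest mean percentile in memory CD4+, 15 in memory CD8+ and 1 in naive CD4+ cells. The lowest mean was in naive CD4+ cells for 99, in memory CD8+ for 42 and in memory CD4+ for 0. Percentiles belong to lists of different lengths and are given as positions within a list.

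The member ranked first was the widest, on chromosome 12 at 91358397 to 91376806, an interval of 18410 bp made of 39 peaks. Its percentiles ran from 17.3 to 99.0 (median 72.4), with means of 94.4 ± 6.39 in memory CD4+, 73.2 ± 21.5 in naive CD4+ and 36.7 ± 17.9 in memory CD8+ lists (SD, n = 4 each). Summits were spread over 5993 bp, so the libraries did not share a single summit there. Its edge lay 0.299 kb from a region open in all 16 libraries.

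More compact regions followed. On chromosome 15, at 102835866 to 102838690, percentiles ran from 35.0 to 79.3 (median 62.4), with summits within 182 bp and means of 77.0 ± 2.55 in memory CD4+, 61.2 ± 2.00 in naive CD4+ and 51.1 ± 15.5 in memory CD8+ lists (SD, n = 4 each). This region was 192.8 kb from the nearest region open in all libraries. On chromosome 7, at 153449372 to 153452196, the range was 29.9 to 83.0 (median 68.9), with 78.2 ± 3.84 in memory CD4+, 67.8 ± 4.12 in memory CD8+ and 34.1 ± 3.58 in naive CD4+ lists (SD, n = 4 each). Both memory populations ranked it far above naive CD4+ cells.

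The pattern on chromosome 7, with both memory populations high and naive CD4+ cells low, returned in several others. It was seen on chromosome 14 at 114582563 to 114585529 (naive CD4+ 36.6 ± 16.5, memory CD4+ 71.4 ± 3.45, memory CD8+ 66.8 ± 4.92, SD, n = 4 each). On chromosome 2, at 177547020 to 177549894, the means were 22.4 ± 6.60, 72.7 ± 10.2 and 65.6 ± 12.9 in the same order. Chromosome 4 at 153552985 to 153556314 and chromosome 15 at 91871651 to 91873868 had naive CD4+ means of 33.5 and 33.8 beside memory CD4+ means of 76.7 and 71.7. Their memory CD8+ means were 57.6 and 59.1. In the last 3, on chromosome 1 (216000275 to 216002090), chromosome 13 (76961959 to 76963946) and chromosome 16 (36951110 to 36953291), the naive CD4+ means were 41.4 to 46.2 and the memory CD4+ means 63.8 to 67.9. Memory CD8+ means there were 58.6, 50.1 and 47.6, the last close to the naive CD4+ mean of 46.2 on chromosome 16. In each of these 10 regions the memory CD4+ mean was the highest of the 3.

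The weakest member was 182602440 to 182603339 on chromosome 5, with a mean percentile of 7.95. Above it came 46642986 to 46643692 on chromosome X, 11781358 to 11782120 on chromosome 20 (mean percentile 10.4), 97725547 to 97726160 on chromosome 9 (11.5) and 48251033 to 48251970 on chromosome 14 (14.3). Of the 141, 62 remained under lists of equal length, 15 with the stricter threshold, 30 with coverage of at least 50% of the region and 127 with 500 bp windows, and 5 remained under all 4. A member must be held by 12 lists, so a region is lost when its weakest peak is. Of the 10 strongest, 3 kept their pattern under 3 of the 4 settings, 6 under 2, and the region on chromosome 4 under 1.

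Of regions 1 library short of this pattern, most lacked a naive CD4+ peak. There were 129 regions missing in all naive CD8+ libraries and open in 11 of the other 12, and the library without a peak was naive CD4+ for 77, memory CD8+ for 48 and memory CD4+ for 4. Others were open in all 12 and in 1 naive CD8+ library, which was that of animal 2 before treatment for 41 regions and each of the other naive CD8+ libraries for 24 to 26. The naive CD8+ peak of these had a median percentile of 7.90. In the lists that held them, the median mean percentile was 27.7 for the 129 and 31.35 for those open in 1 naive CD8+ library, against 35.8 for members.

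With the same exchange between animals, the second kind was seen again in every naive CD8+ library. Regions missing in both naive CD8+ libraries and open in the other 6 numbered 668 (1.2%) in animal 1 and 388 (0.7%) in animal 2. Of those chosen in animal 2, 18.3% were open in animal 1 at each time, and of those chosen in animal 1, 39.7% before and 38.8% after treatment were open in animal 2. The mean was 28.8% ± 12.1 (SD, n = 4) in naive CD8+ libraries and 84.6% ± 8.76 (SD, n = 12) in the others, whose lowest value was 72.7%. The difference of -55.8 points passed (exact permutation test, two-sided p = 0.00110, adjusted p = 0.00220). The 141 members are in both chosen sets, so this outcome was partly fixed by the rule and is no independent support for them. Within animal 1 the means were 18.3% against 86.6%, and within animal 2 they were 39.2% against 82.5%. With lists of equal length the order of the animals turned, to 33.6% and 26.9% in animal 1 and 26.7% and 21.3% in animal 2.

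Across times, 384 regions (0.693%) had the pattern before treatment, of which 18.0% and 21.6% were open in the naive CD8+ libraries of animals 1 and 2 after it. Of the 356 (0.642%) chosen after treatment, 57 in animal 1 and 98 (27.5%) in animal 2 were open before it. The means were 20.8% ± 5.06 (SD, n = 4) against 89.5% ± 7.09 (SD, n = 12) in other libraries (exact permutation test, two-sided p = 0.00110, adjusted p = 0.00220). The same animals again stood on both sides, so this p-value is no evidence about other animals. The 141 members belong by definition to each chosen set, so the outcome was again partly fixed by the rule.

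Among the other populations, memory CD4+ libraries held the missing regions most fully. With regions chosen in the other animal they were open in 93.8% ± 2.03 of cases in memory CD4+, 83.9% ± 7.62 in memory CD8+ and 76.0% ± 2.44 in naive CD4+ libraries (SD, n = 4 each). The difference between naive and memory CD4+ libraries of -17.8 points passed (exact permutation test, two-sided p = 0.0286, adjusted p = 0.0381). Neither memory CD8+ against memory CD4+ (-9.97 points, exact permutation adjusted p = 0.0623) nor naive CD4+ against memory CD8+ (-7.87 points, adjusted p = 0.143) did. The last of these became 2.15 without the memory CD8+ library of animal 1 taken after treatment. It was carried by animal 1, with 75.8% and 72.7% in naive CD4+ against 88.7% and 92.0% in memory CD8+ libraries. In animal 2 these were alike, at 78.3% and 77.25% against 78.1% and 76.65%. With labels permuted within each animal none of the 3 passed, as 4 against 4 cannot go below an exact p of 0.0556 there.

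A minority of members lay near another of the same kind. Of the 212, 45 (21.2%) had another of their kind within 50 kb, and of the 141, 16 (11.35%) had. Over all regions the shares with such a region within 50 kb were 1.91% and 1.99%. For most members the next was far away, at a median of 1934 kb for the 212 and 5230 kb for the 141, against 4779 and 6322 kb from all regions. None of the 212 had one of the 141 within 50 kb, and the reverse was also 0. The 45 formed 15 pairs and 4 larger groups, and the 16 formed 8 pairs. Chromosome 7 held 30 of the 212 (14.2%, against 7.21% of all regions) and chromosome 10 held 14 of the 141 (9.93%, against 5.11%), the highest count of each kind. Others also departed from their share, such as chromosome 12 with 11 of the 141 (7.8%, against 3.84%). Some held less, such as chromosome 1 with 12 of the 141 (8.51%, against 9.98%). These shares are descriptions without a test.

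The group with the most members spanned 84.9 kb of chromosome 7 (154624111 to 154709009). It held 12 regions, of which 6 were members, 2 were open in all 8 CD8+ and no CD4+ library, and 0 were open in all 16. The naive CD8+ libraries each had 10 to 12 of the 12 regions, memory CD8+ libraries 3 or 4, naive CD4+ libraries 1 or 2 and memory CD4+ libraries 0 or 1. Member peaks there had mean percentiles from 9.15 to 37.9. The strongest lay at 154674307 to 154675184 (37.9 ± 11.5, SD, n = 4), 0.886 kb from a second member at 154676071 to 154678125 (36.4 ± 10.6, SD, n = 4).

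A shorter stretch on chromosome 13, from 19004275 to 19051645, held 11 regions. Of these 3 were members and 3 were open in all 8 CD8+ and no CD4+ library. Naive CD8+ libraries had 8 to 11 of them, memory CD8+ libraries 5 or 6, naive CD4+ libraries 1 each and memory CD4+ libraries 0 or 1. Its members, at mean percentiles of 32.8, 45.5 and 52.1, thus shared the stretch with regions that both CD8+ populations held.

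The remaining groups held fewer regions shared with other cells. On chromosome 3, from 86468044 to 86527636, 3 of 5 regions were members. Naive CD8+ libraries had all 5, naive CD4+ libraries 0 or 1, and both memory populations 0. On chromosome 1, from 80570723 to 80604411, 3 of 4 regions were members, and naive CD8+ libraries had all 4, naive CD4+ libraries 1 each, memory CD8+ libraries 0 or 1 and memory CD4+ libraries 0. None of the 4 groups held a region open in all 16 libraries. With a gap of 10 kb in place of 50 kb there were 0 such groups of 3 or more, and with 200 kb there were 7.

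**Figure D4:**
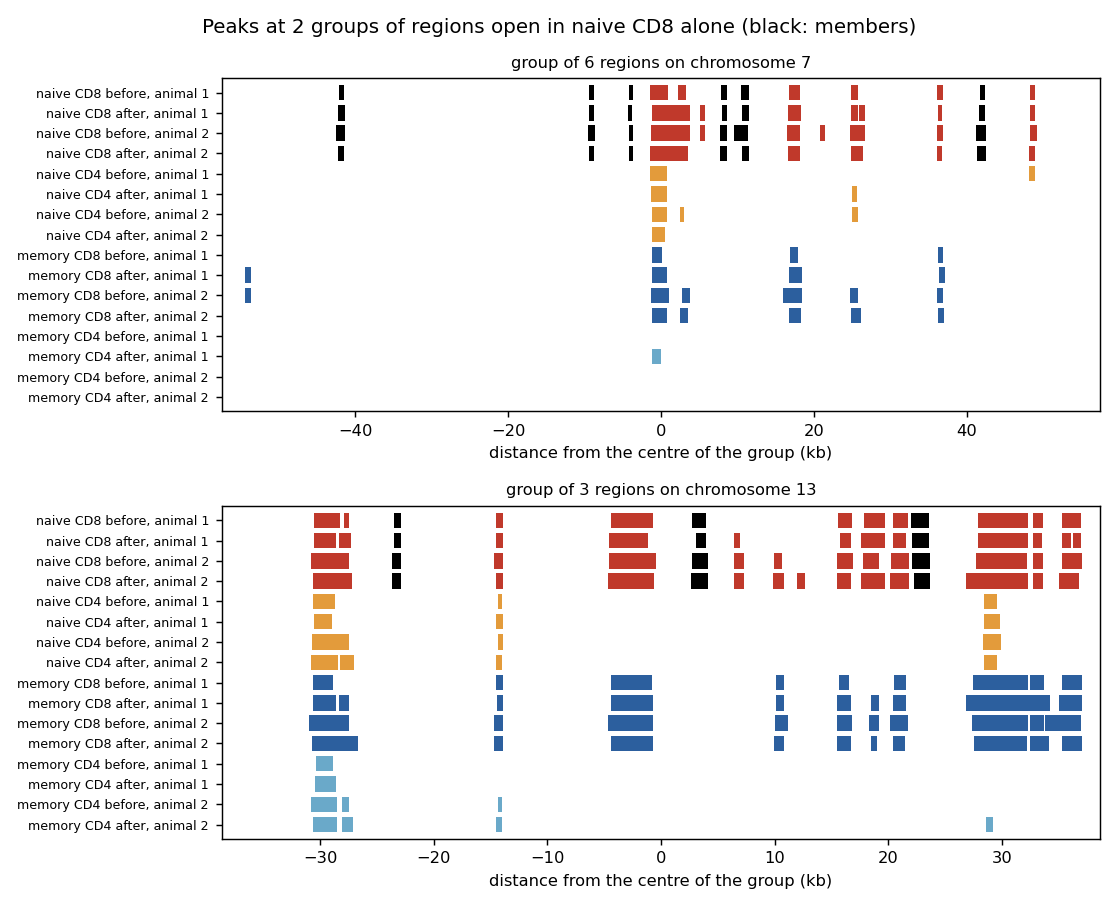
Peaks (bars) of each of the 16 libraries (rows) by distance in kb from the centre of the group, at the groups of 6 members on chromosome 7 and of 3 members on chromosome 13, with member regions in black and other peaks coloured by population. Naive CD8+ libraries hold 10 to 12 of 12 regions in the first and 8 to 11 of 11 in the second group, and black bars stand in naive CD8+ rows only, as the choice of members requires.

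Regions around the members that were themselves no members followed the same order of populations. Within 50 kb of the 212 lay 1016 such regions. They were open in 70.7% ± 6.02 of cases in naive CD8+ libraries (SD, n = 4) and in 57.1% ± 4.09 in the others (SD, n = 12). To allow for list length, each library's share of all non-member regions open was subtracted. This left 6.97 ± 1.93 points in naive CD8+ libraries (4.36 to 8.99), -4.63 ± 2.02 in naive CD4+, -10.05 ± 0.655 in memory CD8+ and -14.2 ± 1.32 in memory CD4+ libraries (SD, n = 4 each). Naive CD8+ exceeded the other libraries by 16.6 points. The same libraries had chosen the members, so this difference is given without a test. Within animals the values were 5.90 against -8.92 and 8.05 against -10.3. The difference became 25.5 points for neighbours within 10 kb, 9.31 within 200 kb and 13.5 for neighbours from 10 to 50 kb.

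Around the 141 the order was turned over. Their 1086 neighbours were open in 49.8% ± 2.32 of cases in naive CD8+ libraries (SD, n = 4) and in 67.5% ± 7.40 in the others (SD, n = 12). After the same subtraction the values were -13.9 ± 2.22 in naive CD8+, -6.85 ± 1.57 in naive CD4+, 0.331 ± 1.35 in memory CD8+ and 8.98 ± 1.28 in memory CD4+ libraries (SD, n = 4 each). The difference between naive CD8+ and other libraries was -14.75 points, again without a test. Within animals the values were -12.3 against 0.731 and -15.55 against 0.912. Within 10 kb the difference was -19.4 points and within 200 kb -8.76.

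Neighbours were then read in libraries that had not chosen the members, a comparison added after seeing the data. Around regions chosen in the other animal as open in naive CD8+ cells alone, the excess was 5.51 ± 1.94 points in naive CD8+ libraries (SD, n = 4) and -6.49 ± 4.01 in the others (SD, n = 12). All 4 naive CD8+ values (3.42 to 8.03) exceeded the other 12, of which the highest was 0.823 in a naive CD4+ library. Within animals the means were 4.12 against -4.52 and 6.90 against -8.46 (difference 12 points, exact permutation test, two-sided p = 0.00110, adjusted p = 0.00220). Around regions chosen as missing there, the excess was -8.42 ± 1.87 in naive CD8+ libraries (SD, n = 4) and 1.01 ± 4.56 in the others (SD, n = 12). The lowest naive CD4+ value, -6.93 in animal 1, lay below the highest naive CD8+ value, -6.735 in animal 2, so the groups overlapped across animals. Within each animal they did not. In animal 1 the highest naive CD8+ value was -9.13 and the lowest other value -6.93, and in animal 2 these were -6.735 and -1.82. Within animals the means were -9.93 against 0.399 and -6.91 against 1.62 (difference -9.43 points, exact permutation test, two-sided p = 0.00220, adjusted p = 0.00440).

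**Figure D5:**
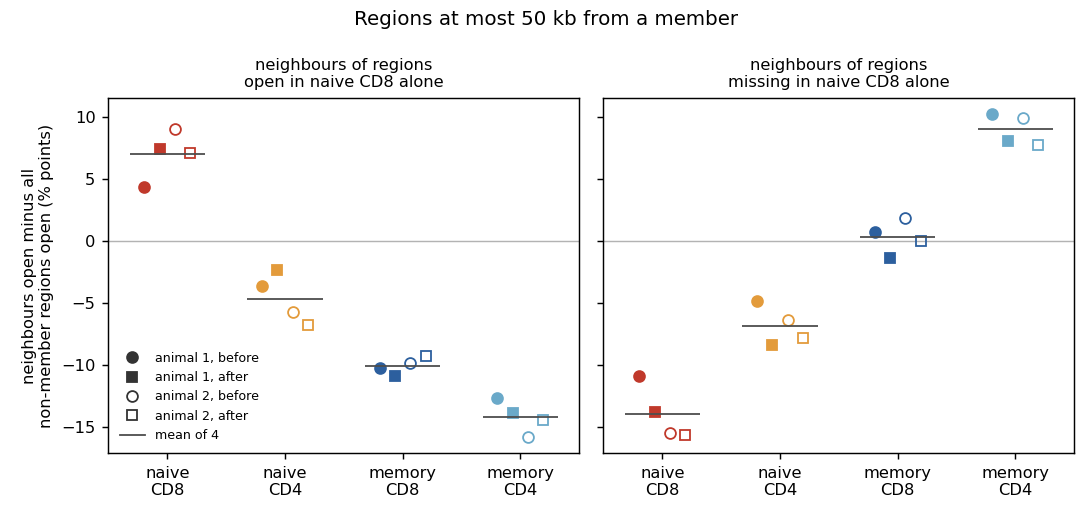
Percent of neighbouring regions open minus percent of all non-member regions open, in percentage points (vertical axis), for each library by population, with filled symbols for animal 1, open symbols for animal 2, circles before and squares after treatment, and a line at the mean of the 4 libraries. Around regions open in naive CD8+ cells alone the naive CD8+ libraries reach 4.36 to 8.99 and lie above all others, and around regions missing there they reach -15.6 to -10.8 and lie below all others.

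Regions of other patterns near the members differed between the kinds. Of the 212, 20 (9.43%) had within 50 kb a region held by the 8 naive lists but by no memory list, against 3.56% of all regions, and 6 (2.83%) had 1 of the reverse pattern, against 4.92%. A region open in all 8 CD8+ and no CD4+ library lay within 50 kb of 17 (8.02%, against 2.15%), and the reverse lineage pattern within 50 kb of 0 (against 1.96%). For the 141 the balance was opposite. Regions open in all 8 memory and no naive library lay near 28 (19.9%, against 4.92%) and regions open in memory CD4+ cells alone near 20 (14.2%, against 1.88%). Regions open in all 8 CD4+ and no CD8+ library lay near 8 (5.67%). Naive regions of both lineages lay near 1 of the 141, and CD8+ regions of both states also near 1.

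The 212 lay farther from constantly open chromatin than the 141 did. The distance to the nearest region open in all 16 libraries had a median of 24.5 kb for the 212, 8.65 kb for the 141 and 11.2 kb for all regions. It was at most 1 kb for 6 of the 212 (2.83%), for 25 of the 141 (17.7%) and for 10.75% of all regions. Taken library by library, the nearest peak of a library without the region lay within 500 bp for 1.42% to 2.83% of the 212 in the 12 other libraries. For the 141 this share was 11.35% to 12.1% in the 4 naive CD8+ libraries. The same share over all regions is not given here, and whether members were edges of peaks called elsewhere was not tested.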

How the data were processed

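ATAC-seq peak lists of 16 libraries were used, 1 per library and not pooled. cutadapt 1.18, Bowtie2 2.3.4.1 and Genrich 0.6 and the build rheMac10 are named in the submitters' processing notes. Settings, transposase shift and duplicate removal: not given in the sources used here. Each list holds the authors' area score, the deposited −log10 p at the summit and the summit position, the last read as an offset from the peak start (other columns not used). Scores were ranked within their list only. Starts are printed counted from 1.

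Members and comparisons were chosen with earlier results of these data known. Named regions, per kind, are the 10 strongest and 5 weakest by mean percentile and groups of 3 or more with gaps of at most 50 kb. Tests were exact permutation tests of a difference in means, two-sided, in 1 family of 12, with an adjusted threshold of 0.05. The family holds both neighbour differences, whose p is printed only where the members were chosen in the other animal. Planned work on sequence, motifs and genes was not run, because only a gene table of a different assembly was used here. Animals were taken from the titles. In the file names the number of animal 2 varies with the population. If those are separate animals, its libraries share no donor across populations. Pairing came from the animals. Deviations from group means of libraries of the same animal correlated at 0.107 to 0.414 (median 0.166, 28 pairs, across regions), and the blocked test permuted labels within each animal. With 2 libraries per group, the deviations of the 2 animals are equal with opposite sign. These correlations therefore cannot show whether the libraries of animal 2 share a donor. No 2 lists were alike enough to be 1 library (fewest differing regions 4069). Merging and tests were tested on simulated data. Alternatives are given in the closing section. Python 3.11.15, numpy 2.4.6, pandas 2.3.3, scipy 1.17.1 and matplotlib 3.10.9 were used.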

Additional observations from a re-analysis of the deposited data

How the results depend on the processing

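Both readings between animals and both between times kept their direction and stayed past the threshold under every alternative run, and both neighbour differences kept their direction. Members belong to each chosen set, so the readings between animals and between times were partly fixed by the rule. The alternatives were lists of equal length (36307 peaks), a summit −log10 p of at least 3.42, coverage of at least 50%, 500 bp windows around summits, autosomes alone, the replicate block (labels permuted within each animal, exact permutation adjusted p = 0.00510) and each library left out. With both naive CD8+ libraries of animal 1 left out, chosen after seeing the data, the 4 that could be run gave 60.7 and -57.3 points between times (exact permutation adjusted p = 0.0220) and 13.8 and -15.4 points for neighbours. The readings between animals could not be run there, because animal 1 then has no naive CD8+ library.

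Counts were 212 to 351 for regions open in naive CD8+ cells alone and 142 to 182 for regions missing there when 1 library was left out, 1.1e+02 (to 2 digits) and 85 with the stricter threshold, and 782 and 223 without both naive CD8+ libraries of animal 1. Groups of 3 or more numbered 0 with a gap of 10 kb, and 7 and 1 with 200 kb.

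Differences between the other populations were the least stable. The replicate block left naive CD4+ minus memory CD4+ at 12.3 and -17.8 points and memory CD8+ minus memory CD4+ at 5.19, all with exact permutation adjusted p = 0.0667. In that block 4 against 4 cannot go below an exact p of 0.0556, so no pair could pass and the block says nothing about stability. Coverage of at least 50% gave 4.93 for the last. Lists of equal length gave 7.15 for naive CD4+ minus memory CD8+ on regions open in naive CD8+ cells alone, and -12.7 for memory CD8+ minus memory CD4+ on regions missing there, both past the threshold. So were -11.1 with the stricter threshold and -15.0 with coverage for the latter. With 1 library left out, naive CD4+ minus memory CD8+ ran from 2.76 to 12.2 and from -14.0 to 2.15, naive CD4+ minus memory CD4+ from 11.0 to 17.0 and from -23.7 to -15.6, and memory CD8+ minus memory CD4+ from 3.85 to 9.34 and from -19.4 to -8.68. The value of 2.15 came without the memory CD8+ library of animal 1 after treatment. A side of 3 libraries against 4 cannot go below an exact p of 0.0571.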
